A study of Mus musculus with 236 samples.

Results

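Mapt, Map2, Map1b, Sox11, Pax6, Nes, Ncam1 and Dclk1 were examined as genes of the neuronal cytoskeleton and of early neural cells, 8 of the 39300 genes of the deposited expression table. They were chosen by name, as rows of that table, and their levels, the share of cells in which they were seen and their occurrence in the same cells were compared between days. The cells were female mouse embryonic stem cells, a line from blastocysts of a C57BL/6J mother and a CAST/EiJ father, whose chromatin contacts and RNA were read together by HiRES, a method that recovers both from the same cell. All cells had been kept in serum medium with leukemia inhibitory factor (LIF) and 2i, a pair of inhibitors of GSK3 (CT99021) and MEK (PD0325901), and differentiation was started by withdrawing both LIF and 2i on fibronectin-coated plates. The groups were cells at day 2.5 and cells at day 0.5 of withdrawal, all of the same line, so every cell at either day had already lost LIF and 2i for part of a day or longer. No neural induction factor is named in the protocol.

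The expression table held 205 day 2.5 cells and 201 day 0.5 cells, from 228 of the 236 libraries, and no cell name occurred in more than 1 library. Cells had a median of 15796 unique molecular identifiers (UMIs, tags that count RNA molecules) at day 2.5 and 13670 at day 0.5. Separate cultures are not named in the labels. Each day was therefore taken as 1 sample, no test between days could be run and no p-value is given. The deposited cell table puts each cell in 1 of 3 batches, and what a batch stands for is not described in the sources used here. Batch 2 held 122 day 2.5 and 121 day 0.5 cells, batch 3 held 83 day 2.5 cells and batch 1 held 80 day 0.5 cells. Levels are UMIs summed over cells and divided by all UMIs of those cells, given per 1000000 (CPM). Intervals are 95% intervals, exact Poisson for levels and Clopper-Pearson for shares of cells, and cover counting error only.

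The products of these genes build or mark young neurons. Mapt (tau), Map2 and Map1b encode proteins that bind and stabilise microtubules, with tau known from axons and Map2 from dendrites of mature neurons, and Map1b from growing axons. Dclk1 encodes a kinase with doublecortin domains that binds microtubules in migrating neurons. Ncam1 encodes an immunoglobulin-family adhesion molecule of neural and other embryonic cells. Nes encodes nestin, an intermediate filament of neural progenitors. Sox11 and Pax6 encode transcription factors, Sox11 of the SoxC group active in progenitors and young neurons, and Pax6 of neural progenitors of forebrain, eye and spinal cord. Embryonic stem cells that leave the naive state pass through a formative state before neural, mesodermal or endodermal fates are taken.

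The table of RefSeq promoters (GRCm38.p6) held entries for 6 of the 8 genes. The 250 bases before each start listed there are shown for the 3 genes called higher at day 2.5, Map2, Sox11 and Dclk1, the last with both of its listed starts, and for Map1b, which was called lower. Map2 lies at chr1:66175079-66175328 (plus strand), Sox11 at chr12:27342719-27342968 (minus strand), the first Dclk1 start at chr3:55242114-55242363 and the second at chr3:55461478-55461727 (plus strand), and Map1b at chr13:99516603-99516852 (minus strand). The annotated gene spans begin at 66175202 for Map2 and at 55242303 for Dclk1. Part of the Map2 window and of the first Dclk1 window, and all of the second, thus lie within the gene. Capitals mark the GC box, searched as GGGCGG on both strands, so that CCGCCC is its reverse complement.
Map2: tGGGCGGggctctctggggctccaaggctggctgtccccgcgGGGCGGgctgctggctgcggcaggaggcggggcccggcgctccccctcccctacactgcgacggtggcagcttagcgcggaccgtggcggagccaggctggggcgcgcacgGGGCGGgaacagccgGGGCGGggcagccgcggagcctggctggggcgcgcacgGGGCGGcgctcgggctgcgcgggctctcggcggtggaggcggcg
Sox11: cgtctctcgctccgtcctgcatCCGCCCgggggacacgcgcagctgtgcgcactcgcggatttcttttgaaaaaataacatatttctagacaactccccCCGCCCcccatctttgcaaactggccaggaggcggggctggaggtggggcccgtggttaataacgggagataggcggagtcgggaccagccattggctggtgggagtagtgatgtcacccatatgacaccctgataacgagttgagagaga
Dclk1, first start: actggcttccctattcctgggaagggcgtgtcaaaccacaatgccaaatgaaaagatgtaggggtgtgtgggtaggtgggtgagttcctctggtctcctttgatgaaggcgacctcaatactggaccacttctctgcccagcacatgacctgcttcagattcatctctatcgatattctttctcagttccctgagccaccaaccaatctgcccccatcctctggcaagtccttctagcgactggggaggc
Dclk1, second start: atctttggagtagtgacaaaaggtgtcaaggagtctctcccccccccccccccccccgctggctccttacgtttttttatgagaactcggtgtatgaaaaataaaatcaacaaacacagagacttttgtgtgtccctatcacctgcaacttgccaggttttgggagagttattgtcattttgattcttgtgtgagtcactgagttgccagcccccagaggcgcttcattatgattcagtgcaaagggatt
Map1b: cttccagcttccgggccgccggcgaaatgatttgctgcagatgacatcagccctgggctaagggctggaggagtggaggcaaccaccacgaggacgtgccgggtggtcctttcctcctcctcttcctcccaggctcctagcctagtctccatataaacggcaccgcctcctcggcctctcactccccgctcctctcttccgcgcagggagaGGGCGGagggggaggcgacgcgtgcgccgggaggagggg
The Map2 window held 5 GC boxes and 34 CpG dinucleotides, and 81.2% of its bases were G or C. The Sox11 window held 2 GC boxes and 17 CpG, and that of Map1b 1 GC box, 19 CpG and a TATAAA. Neither Dclk1 window held a GC box, and each held 4 CpG. Of all 32851 promoters of the table, 32.7% held at least 1 GC box in the same 250 bases and 1.93% held 5 or more, 12.4% held TATAAA, and the median was 6 CpG. The 3 genes called higher thus have windows of different base composition, which is a description of these letters.

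Of the 8 genes, 7 had at least 20 UMIs over both days and were taken as measured, and Nes was not. A gene was called higher or lower at day 2.5 when its CPM ratio was at least 1.5 or at most the inverse of 1.5, in the same direction among cells named with the letter A and among those named with the letter B, all 74 of which were in batch 2. By this rule Map2, Sox11 and Dclk1 were higher at day 2.5, 3 of the 7, against 19.4% of all 13777 measured genes. Mapt, Ncam1, Map1b and Pax6 were lower, 4 of the 7, against 20.4% of all measured genes. Among letter B cells the Pax6 call rests on 0 UMIs at day 2.5 and 3 at day 0.5. The median log2 change of the 7, as log2 of (CPM + 5) at day 2.5 over (CPM + 5) at day 0.5, was -0.49, and that of all measured genes was -0.065. The median of the 7 is the value of Pax6 itself, which rests on 25 UMIs, and without Pax6 it was -0.02 over 6 genes. The microtubule-binding genes therefore did not move as a block: Map2 and Dclk1 were higher at day 2.5, and Mapt and Map1b lower. Among the 83 day 2.5 and 15 day 0.5 cells that are not in the authors' table of X-chromosome alleles, the direction was opposite for Map1b (ratio 1.66, 0.820 to 3.90), Ncam1 (1.84, 0.604 to 9.17) and Sox11 (0.615, 0.335 to 1.24), on 8, 3 and 12 UMIs at day 0.5. The calls rest on a fixed size of change and not on replicate cultures, and fewer cells with a gene and less RNA per cell can be told apart only as far as the UMIs per cell, given further on, allow.

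Mapt showed the largest difference of the 8 genes. It was at 18.03 CPM in batch 2 and 12.05 CPM in batch 3 at day 2.5, and at 372 CPM in batch 2 and 323 CPM in batch 1 at day 0.5. Over all cells this was 15.4 CPM (interval 11.4 to 20.3, 49 UMIs) at day 2.5 and 349 CPM (327 to 373, 928 UMIs) at day 0.5. The day 2.5 level was 0.0440 times the day 0.5 level (interval 0.0323 to 0.0587), a log2 change of -4.12. Only 11 of the 13777 measured genes had a lower log2 change. Both day 2.5 batches lay far below both day 0.5 batches. Mapt was seen in 35 of 205 cells at day 2.5 and in 176 of 201 at day 0.5. No day 2.5 cell held more than 3 UMIs of it, whereas 84 day 0.5 cells held 5 or more.

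Ncam1 was also much lower at day 2.5, at 52.1 CPM (44.5 to 60.7) against 252 CPM (234 to 272) at day 0.5. Its day 2.5 batches were at 48.5 and 56.7 CPM and its day 0.5 batches at 260 and 244 CPM, with no overlap between days. The ratio was 0.207 (0.173 to 0.245), and 173 measured genes had a lower log2 change than its -2.17. It was seen in 63 of 205 cells at day 2.5 and in 125 of 201 at day 0.5. Cells with 10 or more UMIs numbered 1 at day 2.5 and 23 at day 0.5.

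Map1b was lower at day 2.5 by less, at 123 CPM (111.2 to 135.8) against 221 CPM (204 to 240) at day 0.5, a ratio of 0.556 (0.488 to 0.633). Batch 2 and batch 3 were at 110 and 139 CPM at day 2.5, and batch 2 and batch 1 at 239 and 201 CPM at day 0.5. The day 2.5 batches were both below the day 0.5 batches, but batch 3 against batch 1 alone gave a log2 change of -0.52, too small for a call, while batch 2 alone gave -1.08. Within day 2.5, batch 3 was 1.26 times batch 2 (1.03 to 1.54), so batches of the same day also differed beyond counting error. The share of cells with a UMI hardly separated the days, at 123 of 205 cells at day 2.5 and 133 of 201 at day 0.5, with intervals that overlapped (52.9% to 66.8% and 59.2% to 72.7%). Cells with 5 or more UMIs numbered 25 at day 2.5 and 47 at day 0.5.

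Dclk1 had the largest increase of the 8. It was at 74.5 CPM (65.4 to 84.7, 237.5 UMIs) at day 2.5 and at 16.9 CPM (12.4 to 22.7, 45 UMIs) at day 0.5, a ratio of 4.40 (3.19 to 6.19). Batch 2 and batch 3 were at 61.1 and 91.4 CPM at day 2.5, and batch 2 and batch 1 at 18.1 and 15.6 CPM at day 0.5. All day 2.5 batches were above all day 0.5 batches, although batch 3 was 1.49 times batch 2 (1.15 to 1.95) within day 2.5. Its log2 change of 1.86 was exceeded by 318 measured genes. It was seen in 98 of 205 cells at day 2.5 and in 34 of 201 at day 0.5.

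Map2 was at 136 CPM (123 to 149) at day 2.5 and at 76.8 CPM (66.6 to 88.1) at day 0.5, a ratio of 1.77 (1.49 to 2.10). Its batches were at 142 and 128 CPM at day 2.5 and at 85.04 and 67.05 CPM at day 0.5, without overlap. It was seen in 130 of 205 cells at day 2.5 and in 64 of 201 at day 0.5. Sox11 was at 79.4 CPM (69.9 to 89.8) at day 2.5 and at 39.9 CPM (32.7 to 48.3) at day 0.5, a ratio of 1.99 (1.58 to 2.52). Its batches were at 81.7 and 76.5 CPM at day 2.5 and at 34.7 and 46.1 CPM at day 0.5, again without overlap. Sox11 was seen in 54.6% of cells at day 2.5 and in 31.3% at day 0.5. No gene of the annotation overlaps Sox11, and its span of 8.45 kb is the shortest of the 8.

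**Figure D1:**
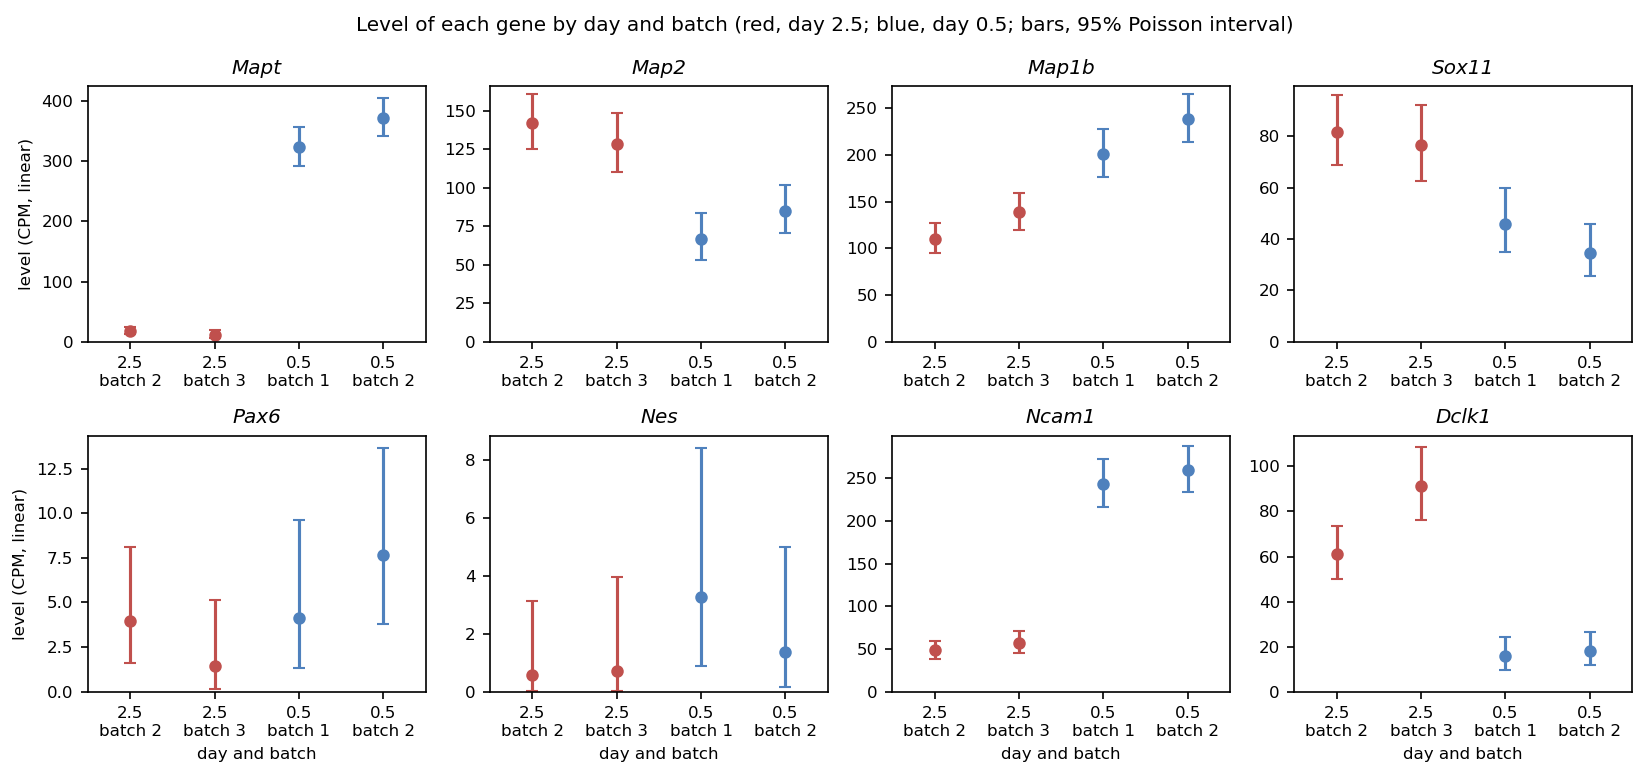
Level of each gene in CPM (vertical axis, linear, from 0) by day and batch (horizontal axis), with 95% Poisson intervals. Mapt and Ncam1 sit far lower in both day 2.5 batches (Mapt at 18.03 and 12.05 CPM) than in both day 0.5 batches, Map2, Sox11 and Dclk1 sit higher, and the intervals of Pax6 and Nes overlap between days.

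Pax6 and Nes were close to absent at both days. Pax6 had 9 UMIs in 6 cells at day 2.5 and 16 UMIs in 13 cells at day 0.5, that is 2.82 CPM (1.29 to 5.36) and 6.02 CPM (3.44 to 9.78). Its ratio of 0.469 met the rule for a lower call, but the interval of 0.183 to 1.13 holds 1, so no difference was detectable at this depth. Of the 9 day 2.5 UMIs, 33.3% came from 1 cell. Nes had 2 UMIs at day 2.5 and 6 at day 0.5, or 0.628 CPM (0.0760 to 2.27) and 2.26 CPM (0.829 to 4.92). As a floor, 10 genes of distant cell types, such as Alb of hepatocytes and Myh6 of heart muscle, were read in the same cells. The most abundant of these, Col2a1 of cartilage, was at 3.45 CPM at day 2.5 and 5.65 CPM at day 0.5. On 11 and 15 UMIs it was called lower by the same rule, so the rule can call genes at the floor. The Nes levels lay below it at both days, and Pax6 was at 2.82 and 6.02 CPM beside it. Pax6 also shares its locus with Pax6os1 (23.5 UMIs at day 2.5 and 26 at day 0.5) and Elp4 (672 and 565 UMIs), and whether reads were counted by strand is not known from those sources, so reads of the overlapping genes may not be told apart.

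Levels of different genes were compared per kilobase of gene span, since 24.2% of UMIs at day 2.5 and 26.3% at day 0.5 lay on exons and introns thus gave most of the tags. At day 2.5, Sox11 led at 9.40 CPM per kb, before Map1b at 1.29, Map2 at 0.508, Dclk1 at 0.251, Ncam1 at 0.175, Mapt at 0.150, Pax6 at 0.0957 and Nes at 0.0671 CPM per kb. The counting intervals of neighbours overlapped from Ncam1 down, and not above it. At day 0.5, Sox11 was at 4.72, Mapt at 3.40, Map1b at 2.33, Ncam1 at 0.849, Map2 at 0.287, Nes at 0.241, Pax6 at 0.204 and Dclk1 at 0.0571 CPM per kb. There only Map2, Nes and Pax6 had overlapping intervals. In this order Mapt stood in the sixth place at day 2.5 and in the second at day 0.5, and Dclk1 in the fourth place at day 2.5 and in the last at day 0.5. The first place of Sox11 depends on division by its short span. In CPM, Sox11 (79.4) lay below Map2 (136) and Map1b (123) at day 2.5. At day 0.5 it was at 39.9 CPM, below Mapt, Ncam1, Map1b and Map2.

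The share of cells with a UMI depends on depth, so each cell was also thinned to 5000 UMIs, which kept 198 day 2.5 and 194 day 0.5 cells and left out 7 of each day. At that depth Mapt was seen in 6.86% of cells at day 2.5 and in 72.3% at day 0.5, against 17.1% and 87.6% of the cells as deposited. Ncam1 was seen in 17.1% of thinned cells at day 2.5 and in 49.4% at day 0.5. Map1b, whose shares were 60.0% and 66.2% as deposited, was seen in 37.2% of thinned cells at day 2.5 and in 48.4% at day 0.5. Map2 was seen in 39.8% at day 2.5 and 20.7% at day 0.5, Sox11 in 29.3% and 16.04%, and Dclk1 in 25.9% and 6.77%. The direction of each of these 6 shares was the same with and without thinning, and agreed in sign with the change of the CPM. The highest share of cells with a UMI among the 10 distant genes was 11 of 205 cells at day 2.5 and 9 of 201 at day 0.5, for Col2a1 as deposited. The 6 genes lay above that at both days, while Pax6 was seen in 6 and 13 cells and Nes in 2 and 6.

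**Figure D2:**
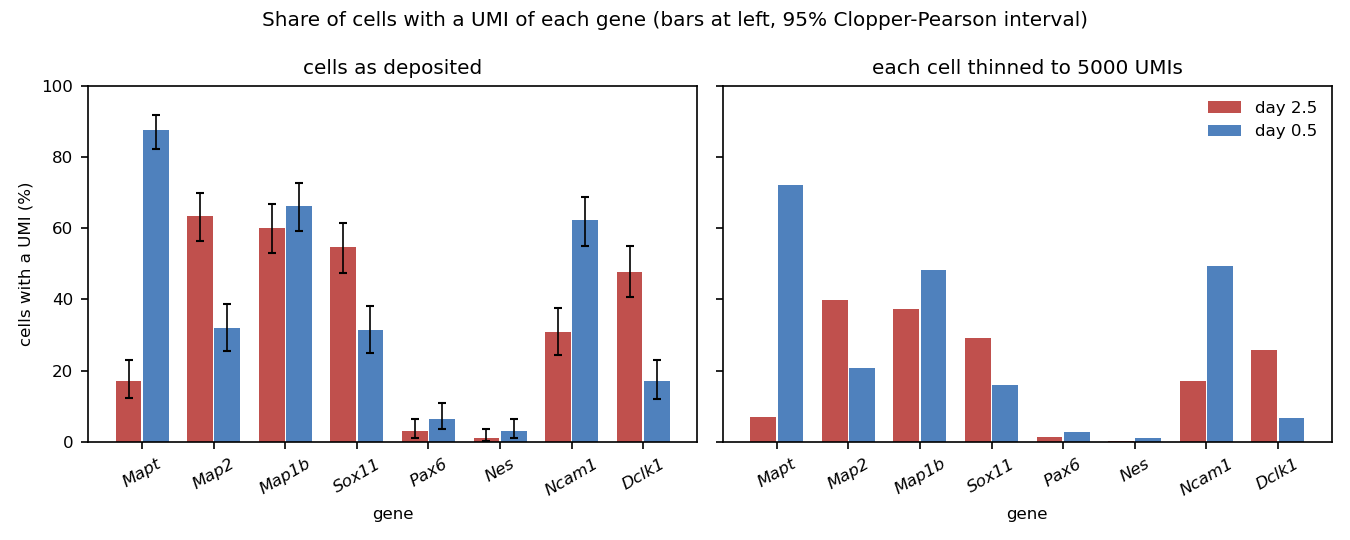
Share of cells with a UMI of each gene (vertical axis, percent) at day 2.5 (red) and day 0.5 (blue), as deposited with 95% Clopper-Pearson intervals and with each cell thinned to 5000 UMIs. Mapt sits at 17.1% at day 2.5, against 87.6% at day 0.5, as deposited, and at 6.86% against 72.3% when thinned.

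In the 6 genes with most UMIs, cells of the same day differed more than counting gives. As a measure, the excess variance was taken, the variance of UMIs among cells beyond that of counting and depth, relative to the squared mean. Nes never had more than 1 UMI in a cell, so its few UMIs could not show such a spread. Pax6 had 17.5 at day 2.5 and 4.76 at day 0.5, on only 9 and 16 UMIs. For Map2 the excess variance was 0.932 at day 2.5 and 3.46 at day 0.5. Of genes with a total within 1.5 times that of Map2, 87.9% of 1577 had a lower value at day 2.5 and 99.05% of 1993 at day 0.5. The 10 cells richest in Map2 held 24.5% of its UMIs at day 2.5 and 44.9% at day 0.5, where 3 cells held 10 or more. Map2 was thus seen in more cells and more evenly at day 2.5. Ncam1 ran the other way, with an excess variance of 2.65 at day 2.5 and 1.24 at day 0.5. Its 10 richest cells held 37.3% of its UMIs at day 2.5 and 25.2% at day 0.5, and a single day 2.5 cell held 15 of its 166 UMIs. Mapt at day 0.5 was the most even of the 6, with an excess variance of 0.389, a median of 4 UMIs in the cells that had it and 17.4% of its UMIs in the 10 richest cells. Still, 76.3% of 716 genes of like total had a lower value than Mapt there. For Map1b and Ncam1 at day 0.5 it was 96.8% of 1163 and 97.2% of 1023 such genes, near the share for Map2. Map1b had 1.08 at day 2.5 and 1.24 at day 0.5, Sox11 0.932 and 1.08, and Dclk1 1.14 and 2.15. The counting intervals given above leave out this spread between cells and are too narrow for it.

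**Figure D3:**
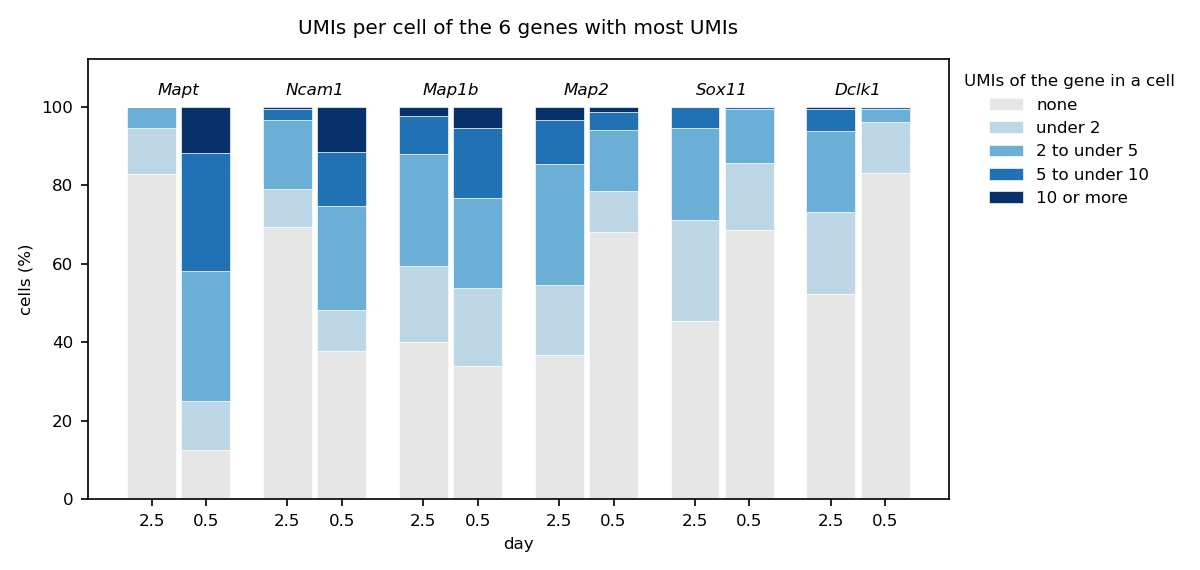
Share of cells (vertical axis, percent) by the number of UMIs of the gene in a cell (grey for none, darker blue for more), at day 2.5 and day 0.5, for the 6 genes with most UMIs. At day 0.5, 84 of 201 cells held 5 or more UMIs of Mapt and at day 2.5 none did, while 30 day 2.5 and 12 day 0.5 cells held 5 or more of Map2.

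The authors' cell cycle classes divided the days unevenly, with 86 of 205 cells in G0 or G1 at day 2.5 and 41 of 201 at day 0.5, so levels were also read within classes. Map2 was at 163 CPM in G0 and G1 cells at day 2.5 and at 70.5 CPM at day 0.5, a ratio of 2.31 (1.61 to 3.42). In early S it was at 267 CPM at day 2.5, in 14 of 15 cells, and at 161 CPM at day 0.5, in 15 of 32 cells. In mid S it was at 95.8 CPM at day 2.5 and 39.03 CPM at day 0.5, a ratio of 2.46 (1.73 to 3.54). In late S, G2 and M no difference was detectable, at 103.8 CPM at day 2.5 and 104.8 CPM at day 0.5 (ratio 0.991, 0.684 to 1.44). Within batch 2 the late S, G2 and M ratio was 0.836 (0.522 to 1.33), on 37 UMIs at day 2.5 and 41.5 at day 0.5. The batch 2 ratio in G0 and G1 was 1.52 (0.989 to 2.42), an interval that also holds 1. In batch 2 early S (2.45, 1.44 to 4.20) and mid S (3.05, 1.93 to 5.00) the intervals lay above 1. Over all batches Map2 was at its highest in early S at both days. Within batch 2 this held at day 2.5, at 257 CPM in early S, but at day 0.5 early S was at 104.8 CPM and late S, G2 and M at 126 CPM. The difference between days was not seen in all classes. Whether the classes differ from each other in their change was not tested.

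The day 2.5 level of Dclk1 lay above the day 0.5 level in each class, at 81.5 CPM in G0 and G1 against 7.05 CPM at day 0.5, 36.4 against 9.55 CPM in early S, 72.6 against 20.3 CPM in mid S and 79.4 against 24.5 CPM in late S, G2 and M. The G0 and G1 ratio of 11.6 has an interval of 4.13 to 48.8, since it rests on 3.5 UMIs at day 0.5. Within batch 2 alone the intervals held 1 in early S (ratio 5.56, 0.910 to 58.4) and in late S, G2 and M (2.05, 0.951 to 4.75). Sox11 was at 113.5 CPM in G0 and G1 cells at day 2.5 and at 60.4 CPM at day 0.5, and at 53.04 and 30.1 CPM in mid S. Its ratios in early S (1.24, 0.516 to 2.89) and in late S, G2 and M (1.58, 0.952 to 2.69) had intervals that hold 1. In batch 2 the Sox11 interval held 1 in early S (1.62, 0.565 to 4.41). It lay above 1 in batch 2 late S, G2 and M (2.39, 1.15 to 5.31). Mapt stayed between 11.9 and 17.7 CPM over the 4 classes at day 2.5 and between 269 and 393 CPM at day 0.5. Ncam1 was at 57.2 CPM in G0 and G1 at day 2.5 against 173 CPM at day 0.5, and at 57.8 CPM against 401 CPM in late S, G2 and M. Map1b was lower at day 2.5 in all 4 classes, with ratios from 0.383 in early S to 0.581 in mid S.

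**Figure D4:**
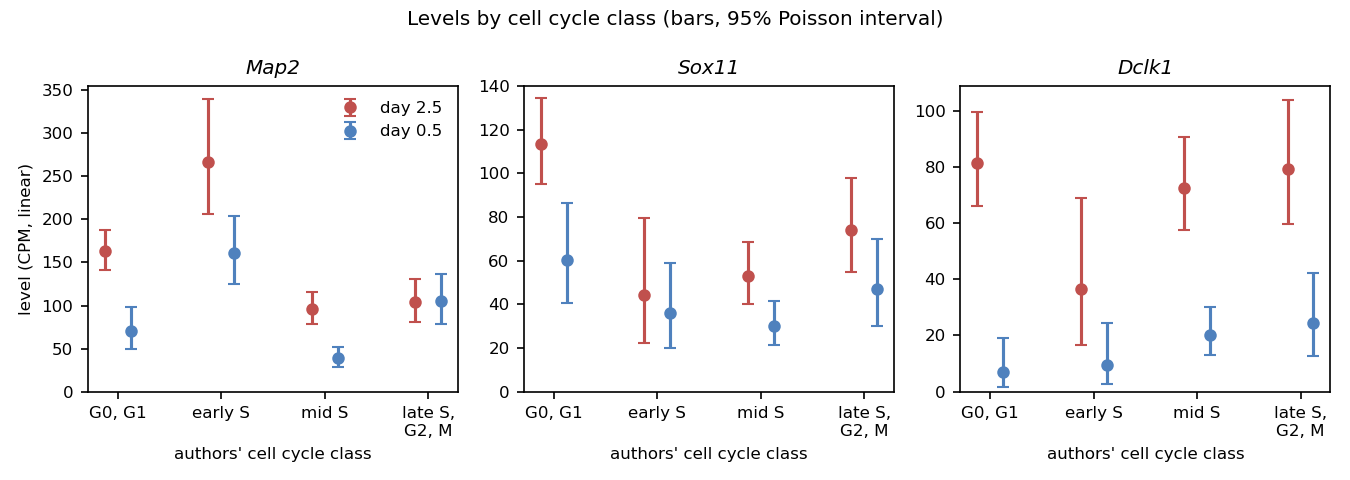
Levels of Map2, Sox11 and Dclk1 in CPM (vertical axis, linear, from 0) by the authors' cell cycle class (horizontal axis) at day 2.5 (red) and day 0.5 (blue), with 95% Poisson intervals. Over all batches Map2 is highest in early S at both days, and it is at 103.8 and 104.8 CPM in late S, G2 and M, while the day 2.5 level of Dclk1 lies above the day 0.5 level in each class.

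Cells of both days held a median of 3 of the 8 genes, but not the same ones. After the values were seen, the genes were grouped as those called higher and the 3 well-measured ones called lower. At day 2.5, 32 of 205 cells held UMIs of Map2, Sox11 and Dclk1 together and 6 of 205 held Mapt, Ncam1 and Map1b together. At day 0.5, 4 of 201 cells held the first 3 and 84 of 201 the last 3. None of Mapt, Ncam1 and Map1b was seen in 53 cells at day 2.5 and in 10 at day 0.5. These counts depend on the shares of each gene and on depth, were not compared with a product of the shares and are no separate result. At day 0.5, the 5 cells with none of the 8 genes had a median of 5154 UMIs, against 13670 over all cells.

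Genes seen in the same cell were counted within each day. For a pair of genes, the number of cells with both was divided by the product of both shares times the number of cells, in pairs where that product was at least 10 cells. Over 15 pairs at day 2.5 the quotient ran from 0.897 to 1.20 with a median of 1.03, and over 16 pairs at day 0.5 from 0.800 to 1.11 with a median of 1.02. The quotient cannot lie far above 1 for a gene seen in most cells, such as Mapt at day 0.5. There 124 of 176 cells with Mapt also held Map1b (70.5%, interval 63.1% to 77.1%), against 9 of 25 cells without Mapt (interval 17.97% to 57.5%), although the quotient was 1.06. The cells with Mapt were also deeper, with a median of 14105 UMIs against 9493. With cells thinned to 5000 UMIs the quotient of this pair was 1.07, but the difference of the shares was not tested at equal depth. Without M phase cells, 70.4% of day 0.5 cells with Mapt also held Map1b (62.9% to 77.2%). Of the 17 such cells without Mapt it was 47.1% (22.98% to 72.2%), so these intervals overlapped. Over all pairs, the median quotient in cells thinned to 5000 UMIs was 0.984 at day 2.5 and 1.03 at day 0.5. Map2 and Sox11, both higher at day 2.5, were seen together in 70 cells there against a product of 71.02, and Sox11 and Dclk1 in 49 against 53.5. At day 0.5 the highest correlation across cells was that of Map1b with Ncam1, at r = 0.24 over the 194 cells with at least 5000 UMIs, with both in 90 cells against a product of 82.7. Mapt and Ncam1 had r = 0.21 there, and Map1b and Dclk1 r = -0.12, with both in 18 cells against 22.5. At day 2.5 all pairs lay between r = -0.12 and 0.14 over 198 cells. The points share their libraries and depth, and in counts this sparse correlations of this size are given as description.

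**Figure D5:**
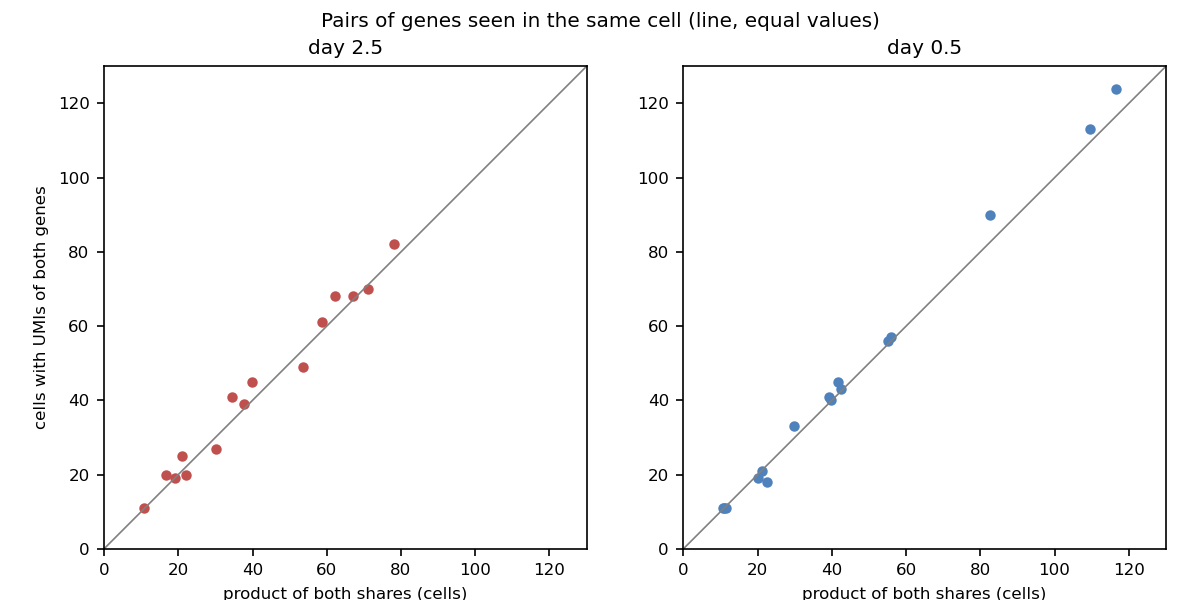
Cells with UMIs of both genes of a pair (vertical axis) against the number given by the product of both shares (horizontal axis), for 15 pairs at day 2.5 and 16 at day 0.5. The points lie along the line of equal values, as for Map2 and Sox11 at day 2.5 with 70 cells against 71.02.

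The genes whose levels followed each gene most closely over the 4 combinations of day and batch were sought among 7716 genes with at least 100 UMIs, by the root mean square distance of log2(CPM + 5), each gene centred on its own mean. For Mapt these were Gfod1, Triml2 and Platr28. Gfod1 had 21.1 CPM in batch 2 and 18.4 CPM in batch 3 at day 2.5, and 428 CPM in batch 2 and 364 CPM in batch 1 at day 0.5. For Ncam1 they were Wdr47, Slc6a8 and Prdm16, for Map1b Kmt2b, C330024D21Rik and Slc12a2, for Map2 Hace1, Ube2b and Mertk, and for Sox11 Atxn7l1, Cdon and Add3. For Dclk1 they were Ptn, the growth factor pleiotrophin, Fmn1, an actin-nucleating formin, and Ubash3b. Ptn was at 30.7 and 48.2 CPM at day 2.5 and at 7.64 and 6.58 CPM at day 0.5, with the same higher level in batch 3 as Dclk1. With 4 points such likeness mostly reflects the size of the change between days.

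Across cells of the same day, the highest correlations of log2(UMIs per 10000 + 1) were low. At day 2.5, Map2 went most with Cacnb2 (r = 0.36 over 198 cells and 3659 genes), Rbms1 and Trps1. Sox11 went most with Tmem131l (r = 0.30), Dclk1 with Rab10 (r = 0.26) and Map1b with Fndc3b (r = 0.25). At day 0.5, Mapt went most with Gli2, a transcription factor of Hedgehog signalling (r = 0.38 over 194 cells and 3196 genes), and Tenm4, a teneurin. Ncam1 went most with Ext1 (r = 0.36), Map1b with Kat2b (r = 0.30) and Map2 with Elf4 and with Cdh2, which encodes N-cadherin (both r = 0.29). None of the 8 genes was among the 3 nearest of another. These are the highest values over all genes compared, whose median was between -0.005 and 0.008.

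The labelled cell type was read from marker lists. For the calls below, the shares over all measured genes were 19.4% higher and 20.4% lower. Of 12 naive pluripotency markers, 10 were measured and all 10 were lower at day 2.5, with a summed level of 85.7 CPM at day 2.5 and 1270 CPM at day 0.5. All 7 formative markers, Fgf5, Pou3f1, Otx2, Dnmt3b, Lin28b, Pim2 and Zic2, were higher, at 2642 CPM summed at day 2.5 and 993 CPM at day 0.5. Of 6 markers of embryonic stem cells, 4 were lower. Pou5f1 was at 13.5 CPM at day 2.5 and 31.3 CPM at day 0.5, Sox2 at 7.06 and 32.8 CPM, Utf1 at 3.45 and 7.91 CPM and Dppa5a at 1.26 and 12.4 CPM. The remaining Sall4 (127 CPM at day 2.5 and 133 CPM at day 0.5) and Tdgf1 (175 and 218 CPM) were called neither way. Of 8 neuron markers, Tubb3, a neuronal tubulin, had 5.17 UMIs at day 2.5 and 11 at day 0.5, and Dcx, the doublecortin gene, 5 and 3. The other 6 were measured and ran in different directions. Syt1 at 84.9 CPM, Snap25 at 48.8 CPM and Rbfox3 at 22.1 CPM at day 2.5 were called higher, against 19.6, 19.8 and 11.5 CPM at day 0.5. Stmn2 was called lower. Elavl3 was at 79.9 CPM at day 2.5 and 31.8 CPM at day 0.5, a ratio of 2.52 (1.96 to 3.26). It met the rule for size but not the agreement of letters, so it was called neither way. Elavl4, at 37.7 and 52.3 CPM, was called neither way because its change was too small. The 8 together summed to 359 CPM at day 2.5 and 512 CPM at day 0.5. Stmn2 alone gave 81.9 CPM of this at day 2.5 and 372 CPM at day 0.5. Without Stmn2 the sum would be higher at day 2.5. Of 5 neuroectoderm markers in the table only Pax6 reached 20 UMIs, and the list summed to 3.77 CPM at day 2.5 and 8.28 CPM at day 0.5. In it Sox1 had 1.5 UMIs at day 2.5 and 1 at day 0.5, and Zic1 1 and 1. Neural crest markers summed to 4.08 CPM at day 2.5 and 19.4 CPM at day 0.5, endoderm markers to 16.01 and 14.1 CPM, primitive streak and mesoderm markers to 3.92 and 9.04 CPM, fibroblast markers to 7.53 and 7.91 CPM and trophectoderm markers to 7.22 and 1.88 CPM. The part of other cells in the levels was not tested.

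The naive and formative markers did not separate cells with a gene from those without it in a common way. At day 2.5, cells with a UMI of Mapt had 123 CPM of naive markers (96.5 to 155) and cells without it 77.1 CPM (66.7 to 88.5). Formative markers were at 2599 and 2652 CPM in those cells. Day 2.5 cells with Map2 had 75.03 CPM of naive markers (63.9 to 87.5) and 2755 CPM of formative markers (2685 to 2826), and cells without it 108.1 CPM (88.9 to 130) and 2404 CPM (2311 to 2501). At day 0.5, naive markers were at 1264 CPM in cells with Mapt and 1330 CPM in cells without it, with overlapping intervals. Day 0.5 cells with Map2 had 1371 CPM of naive (1295 to 1450) and 1076 CPM of formative markers (1009 to 1146), and cells without it 1219 CPM (1168 to 1271) and 951 CPM (906 to 997). At day 2.5, cells with Map1b had 2543 CPM of formative markers (2474 to 2613) and cells without it 2816 CPM (2720 to 2914), opposite in direction to Map2, with overlapping naive intervals. For Sox11 and Dclk1 the naive intervals of cells with and without a UMI overlapped at both days. Cells with a UMI are also deeper, with medians of 16516.5 UMIs for Map2 at day 2.5 and 13525 without it, and the part of depth was not tested. All these intervals leave out the spread between cells, so the groups of cells are described and not told apart.

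Genes around the 8 were counted in 6 wider lists, which like the 8 were chosen with earlier results of these data known. Over all measured genes, 19.4% were called higher and 20.4% lower. Of 27 neuronal microtubule genes, 19 were measured, 5 were higher and 5 lower (26.3% each, near the shares over all measured genes), with a median log2 change of 0.07. Its 4 most abundant members were Map4, at 497 CPM at day 2.5 and 675 CPM at day 0.5, Dclk2, a doublecortin-like kinase related to Dclk1, Map7 and Stmn2, a tubulin-binding stathmin. Dclk2 was at 222 CPM at day 2.5 and 576 CPM at day 0.5 (log2 change -1.36), against the direction of Dclk1. Stmn2 was at 81.9 CPM at day 2.5 and 372 CPM at day 0.5 (-2.12), and Map4 and Map7 were called neither way.

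Of 21 neurofilament and growth cone genes, 18 were measured, 10 of them higher and 2 lower (55.6% and 11.1%, beside 19.4% and 20.4% of all measured genes), and their median log2 change was 0.78. Its most abundant members were Dst, Ank2, Ank3 and Sptbn1, which link the cytoskeleton to membranes. Ank3 was at 685 CPM at day 2.5 and 101.7 CPM at day 0.5 (2.69), Ank2 at 809 and 216 CPM (1.88) and Dst at 1348 and 769 CPM (0.81), while Sptbn1 was at 209 and 184 CPM. Of 20 neural adhesion genes, to which Ncam1 belongs by function, 19 were measured, 7 of them higher and 1 lower (36.8% and 5.26%, beside the same 19.4% and 20.4%), and the median was 0.17. Nrcam was at 193 CPM at day 2.5 and 9.04 CPM at day 0.5 (3.82), Nfasc at 181 and 37.5 CPM (2.13) and Cadm1 at 1557 and 606 CPM (1.35). Ncam1, at a log2 change of -2.17, thus ran against these 3 genes.

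Of 40 neural plate and progenitor transcription factors, 39 were in the table and 17 measured. Of these, 8 were higher and 5 lower (47.1% and 29.4%, beside 19.4% and 20.4% of all measured genes), with a median of 0.75. Among the higher ones, Otx2, Zic2 and Pou3f1 are also formative markers used above, and among the lower ones Sox2 is also a stem cell marker. The list is therefore not independent of those markers. Meis2 was at 21.97 CPM at day 2.5 and 338 CPM at day 0.5 (-3.67), while Otx2 was at 148 and 82.5 CPM (0.81) and Zic5 at 113.8 and 55.7 CPM (0.97). Of 24 progenitor surface, filament and signalling genes, 16 were measured, of which 7 were higher and 4 lower (43.8% and 25% of them), with a median of 0.37. Msi2 was at 1756 CPM at day 2.5 and 1484 CPM at day 0.5 and Fgfr2 at 1090 and 1587 CPM, both called neither way, Slc1a3 was lower at 445 and 860 CPM and Lrp2 higher at 442 and 216 CPM. Of 27 neurogenic and postmitotic neuron genes, 25 were in the table and 11 measured, of which 6, or 54.5%, were higher and none lower, with a median of 0.78. Elavl2 was at 217 CPM at day 2.5 and 121 CPM at day 0.5 (0.81) and Syt1 at 84.9 and 19.6 CPM (1.87). Elavl3, which met the rule for size but not the agreement of letters, and Elavl4 were called neither way. In this list Neurog1, Neurod2, Atoh1, Nhlh2 and Lhx1 were among the genes at 0 UMIs at both days.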

How the data were processed

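The authors deposited expected counts of UMIs for each gene in each cell (per the file headers), and 11.1% of values above 0 are fractions. Their cell tables give counts of gene and exon UMIs per cell, the labels called batches here and cell cycle classes. A pseudotime score that the authors deposited was not used. Per the submitters' processing notes the build was GRCm38. Aligner, counting tool and strand setting: not given in the sources used here. Of 1507 columns, 1101 belong to no sample here and were not used. Of 471 cells in the titles, 406 were in the table.

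UMIs were summed over the cells of each day and scaled to CPM with Python 3.11.15, pandas 2.3.3 and scipy 1.17.1. Ratio intervals are exact conditional ones. Thinned shares are hypergeometric expectations. The 8 genes, the lists and the rules were chosen with earlier results of these data known. All 8 genes were named, up to 4 genes of each list with the most UMIs (a few are not reported here) and the 3 nearest genes of each gene with at least 100 UMIs over both days, or 200 in a day across cells. The calling rule was run on simulated counts with changes of known size. These held Poisson error only, without the spread between cells and batches seen here, so they do not give its error rate. Alternatives covered scaling, pseudocount, batches, letters, depth and cell cycle class.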

Additional observations from a re-analysis of the deposited data

How the results depend on the processing

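No paired analysis was possible because each day is 1 sample. Without batch 2, the number of genes called lower was 2 (Mapt and Ncam1) in place of 4. That setting also drops all letter B cells and with them the agreement of letters, and leaves Pax6 under 20 UMIs. At a CPM ratio of 2, 1 gene was called higher (Dclk1) in place of 3, and in early S cells 1 (Map2). Among cells that are not in the allele table, 1 gene was called lower (Mapt), and the 3 called higher were Map1b, Ncam1 and Dclk1. The other 32 counts were within 1.5 times of the reported ones. Over 17 alternatives Mapt ran from -5.00 to -3.73 and Dclk1 from 1.51 to 3.71 on the log2 scale, without a change of sign. Map2 turned to -0.012 in late S, G2 and M. Outside the allele table, with 15 day 0.5 cells, Map1b turned to 0.69, Ncam1 to 0.78, Pax6 to 0.54 and Sox11 to -0.66, and these were their only changes of sign. Nes, with 8 UMIs or fewer, ran from -1.002 to 0.42. Scaling by median ratios moved the log2 ratio by 0.085 before the pseudocount, and less after it, and gave 2896 higher and 2524 lower genes, against 2666 and 2813. The cause of the other shifts was not tested. The cell cycle classes and the cells outside the allele table were chosen after seeing the data. All values rest on 1 sample a day.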
